A study of Homo sapiens with 24 samples.

Results

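The subject is a group of 10 genes that encode heat shock proteins and their cochaperones: *HSPA1A*, *HSPA1B*, *HSPA8*, *HSPH1*, *DNAJB1*, *BAG3*, *HSP90AA1*, *HSP90AB1*, *HSPB1* and *HSPD1*. They were chosen by name, as the rows of the expression table whose Ensembl identifiers carry these symbols in GENCODE release 29, and all 10 were found among 58024 rows. The rule used no measured value, though the members were chosen with earlier results on these samples known. Of the 10, 9 encode proteins of the cytosol and nucleus, and *HSPD1* encodes the HSP60 chaperonin of the mitochondrial matrix. The study measured RNA in Huh7, a human hepatoma cell line, in its wild type form (WT) and with *ABHD6* knocked out (KO), a gene for an enzyme that cleaves monoacylglycerols. The groups were WT and KO cells in basal media (0 h) and WT and KO cells after 24 h or 48 h with palmitic acid, a saturated fatty acid, at 800 µM. Each of these 6 groups had 4 libraries, 24 in all. No group had the same time in culture without the acid, so acid and time cannot be told apart, and the labels give neither the number of KO clones nor whether libraries came from separate cultures. The p-values therefore measure the spread between these libraries, which may be technical.

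Molecular chaperones bind unfolded or partly folded proteins and help them reach or regain their native form. HSP70 proteins (*HSPA1A*, *HSPA1B*, *HSPA8*) bind short hydrophobic stretches in a cycle driven by ATP, in which J-domain proteins such as *DNAJB1* deliver clients and start ATP hydrolysis, and exchange factors such as *HSPH1* and *BAG3* release the nucleotide. HSP90 (*HSP90AA1*, *HSP90AB1*) takes over clients at a later stage, among them kinases and steroid receptors, and the small heat shock protein *HSPB1* holds unfolded proteins without ATP. When unfolded proteins build up in the cytosol, heat shock factor 1 (HSF1) binds heat shock elements, repeats of the unit nGAAn in alternating orientation, and raises transcription of the inducible members. *HSPA8* and *HSP90AB1* are the forms classed as constitutive, and *HSPA1A*, *HSPA1B* and *HSP90AA1* the forms classed as inducible.

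Matches of promoter letters to short forms of the heat shock element are shown first. Matches stood before the members classed above as inducible and before *HSPA8* and *HSP90AB1*, classed as constitutive, but not before every member. The RefSeq promoter table (GRCh38.p14), which gives 250 bases before and 50 after each start, held 16 windows for the 10 genes. They were searched on both strands for GAANNTTC and TTCNNGAA, each its own reverse complement, and for the 3-unit forms, in which GAANNTTC is followed by NN and GAA, or TTCNNGAA by NN and TTC. The 3-unit forms are reverse complements of each other and contain overlapping 2-unit matches. A 2-unit form stood in 9 of the 16 windows, against 13.5% of all 35116 windows in the table. A 3-unit form stood in 4 of the 16, those of *HSP90AA1*, *HSP90AB1*, *HSPA8* and *HSPD1*, against 0.490% of all windows. The single windows of *HSPH1* and *BAG3* held no match. Stretches of 30 bases around the matches before a start are given 5′ to 3′ on the strand of the gene, with each run of overlapping matches in capitals. The 1 remaining match, 1 base after another start of *DNAJB1*, is not shown.
HSPA8, chr11:123062345-123062374, minus strand: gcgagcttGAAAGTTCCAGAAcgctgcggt
HSPA8, chr11:123062170-123062199, minus strand: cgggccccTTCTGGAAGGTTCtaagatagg
HSP90AA1, chr14:102087111-102087140, minus strand: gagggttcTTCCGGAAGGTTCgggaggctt
HSP90AA1, chr14:102087094-102087123, minus strand: gttcgggaggcTTCTGGAAaaagcgccgcg
HSP90AB1, chr6:44247770-44247799, plus strand: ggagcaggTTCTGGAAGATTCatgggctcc
HSP90AB1, chr6:44247823-44247852, plus strand: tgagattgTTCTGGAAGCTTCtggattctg
HSPD1, chr2:197500061-197500090, minus strand: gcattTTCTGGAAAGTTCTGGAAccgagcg
DNAJB1, chr19:14518456-14518485, minus strand: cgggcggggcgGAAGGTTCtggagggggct
DNAJB1, chr19:14518426-14518455, minus strand: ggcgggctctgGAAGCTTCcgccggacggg
HSPA1A, chr6:31815426-31815455, plus strand: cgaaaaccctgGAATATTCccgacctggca
HSPA1B, chr6:31827622-31827651, plus strand: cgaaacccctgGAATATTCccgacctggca
HSPB1, chr7:76302480-76302509, plus strand: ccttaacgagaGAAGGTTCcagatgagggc

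The 18-base run of *HSPD1* began 245 bases before its start and the single match of *HSPB1* 182 bases before its own. The first capitals of *HSPA8* lay 230 and 55 bases before the start, those of *HSP90AA1* 88 and 68 bases, those of *HSP90AB1* 165 and 112 bases, and those of *DNAJB1* 77 and 47 bases. A match describes the letters in these windows and is not a measured site.

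The libraries were shallow for such genes. The deposited values are FPKM, fragment counts scaled to transcript length and library size, and their smallest steps placed 397768 to 505226 fragments behind each library at 0 h and 570382 to 724471 behind each later library. One fragment on a 2 kb transcript was worth 0.690 to 1.26 FPKM. Antisense-annotated genes took up 56.0% to 58.1% of all FPKM at 0 h, 45.0% to 48.8% at 24 h and 44.0% to 47.4% at 48 h. Depth and antisense share thus moved with time in every comparison against 0 h, and their part in those results was not tested. The library kit was directional, but the sources used here give no strand setting for the counting. With the opposite setting the members would hold only stray fragments of the other strand. Which setting was used was not tested, so every level and change of a member below carries this limit. *GAPDH* averaged 239 FPKM over the 24 libraries, and *AC006064.4*, an antisense-annotated gene within its bounds, averaged 37290 FPKM (16275 to 78478). *ABHD6* was above 0 in 3 of 12 WT and 4 of 12 KO libraries and could not check the genotype labels. All 11 hepatocyte and hepatoma markers were found in all 24 libraries, whereas *DCN*, *CDH5*, *VWF* and *KDR* were listed at 0 in all. *DCN* was 1 of 6 stellate and fibroblast markers. Of the others, *COL1A1* was above 0 in 1 library, *COL3A1* in 2, *COL1A2* and *LUM* in 7 each, and *PDGFRB* in 8, at up to 8.22 FPKM. Of 5 immune markers, *PTPRC* was above 0 in 3 libraries, *CD3E* in 4, *CD14* in 14 and *CD68* in 21, and *LYZ* read 78.0 to 329 FPKM in all 24. The sum of these 5 was 83.7 to 164 FPKM in WT at 0 h and 178 to 310.1 at 48 h, and 150 to 219 in KO cells at 0 h and 229 to 338 at 48 h. Exons of *LYZ* and *CD68* overlap a gene on the opposite strand. The endothelial marker *PECAM1* was found in all 24 libraries, at 0.462 to 18.0 FPKM. The part of these markers in the results was not tested.

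Expression spread over more than 100-fold among the members. *HSP90AA1* was the highest, with a mean of 505 FPKM over the 24 libraries (range 323 to 713), followed by *HSP90AB1* at 249 (162 to 328), *HSPA8* at 238 (156 to 430) and *HSPD1* at 180.3 (111 to 267). These 4 genes held 40.2%, 19.8%, 19.0% and 14.4% of the summed FPKM of the 10. *HSP90AB1* and *HSPA8* stood next to each other in that order with overlapping ranges. *DNAJB1* averaged 37.5 FPKM (13.9 to 85.5), *HSPB1* 19.9 (3.96 to 40.4) and *HSPH1* 16.5 (6.10 to 35.4). *HSPA1B* at 3.33 FPKM, *HSPA1A* at 3.08 and *BAG3* at 2.68 were near the limit of detection and had overlapping ranges. Their median values corresponded to 4.19, 4.26 and 3.47 fragments over the full exon length, against 1447 for *HSP90AA1* and 591 for *HSPA8*. All 10 passed the filter of a mean of at least 0.5 FPKM that was set for testing, which 17252 genes passed.

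**Figure D1:**
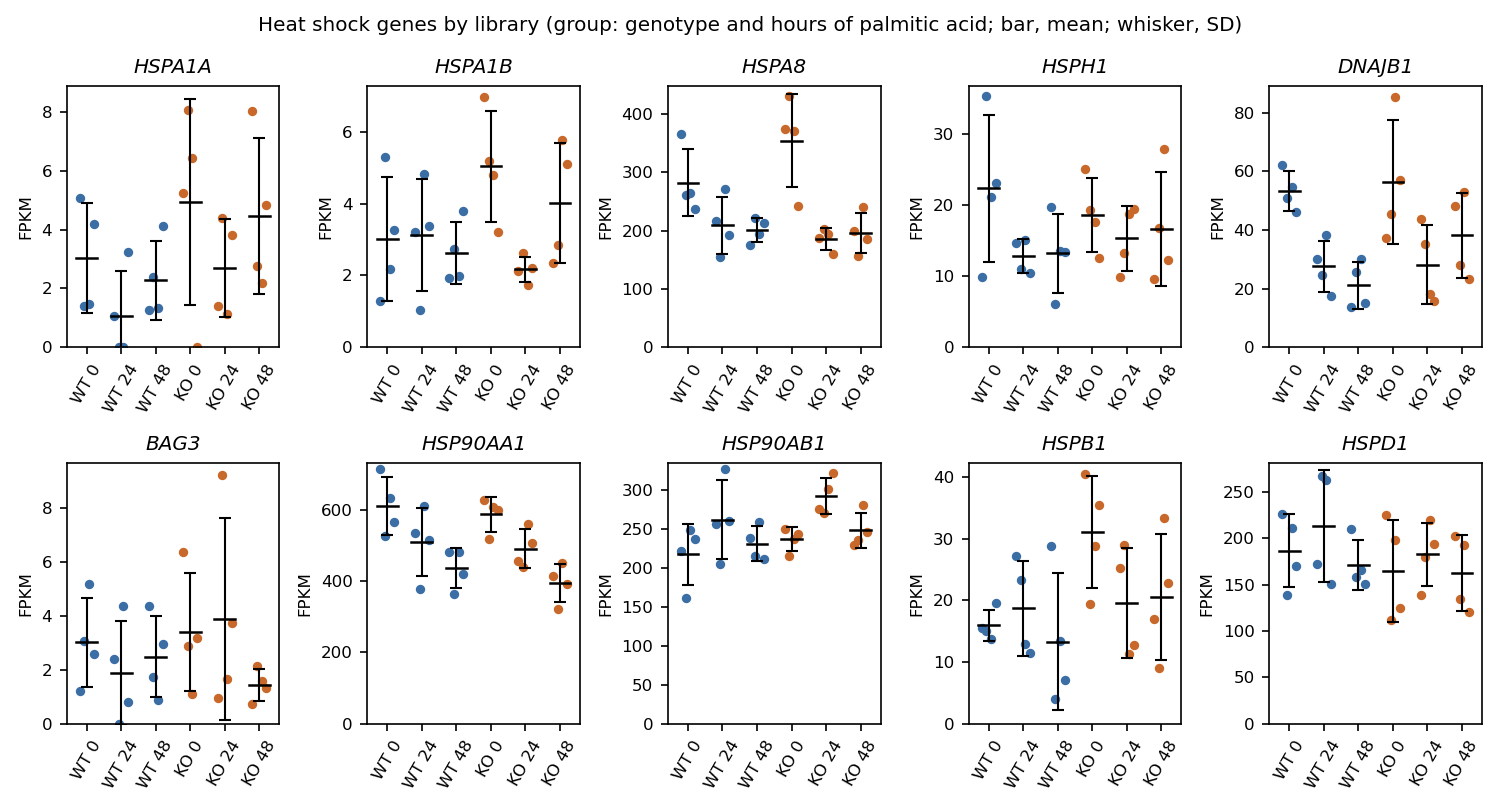
FPKM of the 10 heat shock genes in each of the 24 libraries, 1 panel per gene with its own vertical axis; dots are libraries, bars group means and whiskers the SD of 4 libraries. *HSPA8* and *DNAJB1* have their highest libraries at 0 h, *HSP90AB1* has its highest at 24 h, and *HSPA1A* and *BAG3* reach 0 in single libraries.

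Changes were computed as differences of log2(FPKM + 0.5), a scale that understates the change of low genes, in a single limma fit of the 6 groups. The threshold for a call was 0.05 on p-values adjusted by Benjamini-Hochberg across the 17252 genes. After palmitic acid the called changes were falls of the constitutive HSP70 gene *HSPA8*, the inducible HSP90 gene *HSP90AA1* and the HSP70 partner *DNAJB1*. No member was called higher at 24 h or 48 h in either genotype, except *HSP90AB1* under quantile normalization, a different scaling described further on. In WT cells at 24 h 0 of 10 members were called, where 4.06% of all genes were. That share stood for 701 genes, a count that was 442 without WT replicate 3 at 24 h. In WT cells at 48 h *DNAJB1* and *HSP90AA1* were called lower, 2 of 10 where 6.79% of all genes were called and 4.22% called lower. In KO cells at 24 h *HSPA8* was called lower, 1 of 10 where 5.64% of all genes were called and 3.51% called lower. In KO cells at 48 h *HSPA8* and *HSP90AA1* were called lower, 2 of 10 where 9.82% of all genes were called and 6.42% called lower. At an unadjusted limma p under 0.05 there were 2 members in WT at 24 h and 3 at 48 h. The shares of all genes there were 15.8% and 18.8%. In KO cells there were 4 members at 24 h and 2 at 48 h, where the shares were 17.8% and 21.7%. With 10 members these counts are small, and no count was tested against the share over all genes. The 24 h and 48 h comparisons of a genotype share their 0 h libraries.

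The median log2 change of the 10 was -0.36 at 24 h and -0.39 at 48 h in WT cells, and -0.31 and -0.45 in KO cells. Over all genes tested the median was 0.00 in each of these comparisons. Over the 3341 genes that averaged 20 FPKM or more it was -0.20 and -0.28 in WT cells and -0.20 and -0.35 in KO cells. Other scalings between libraries moved the median of the members. It was -0.25, -0.27, -0.23 and -0.28 with median-of-ratios scaling, for WT at 24 h and 48 h and KO at 24 h and 48 h, where all genes had 0.05, 0.10, 0.05 and 0.11. With quantile normalization it was -0.11, -0.37, -0.27 and -0.20, where all genes had 0.00. The summed FPKM of the members in WT cells was 1397 ± 182 at 0 h, 1260 ± 206 after 24 h and 1095 ± 86.0 after 48 h (SD, n = 4). The KO sums were 1463 ± 136, 1224 ± 79.7 and 1087 ± 162. As a share of all FPKM in a library, the mean was 0.126% in WT before the acid, 0.133% after 24 h and 0.124% after 48 h. The KO shares were 0.127%, 0.129% and 0.127%. The mean share in KO cells was thus level where the mean sum was lower.

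**Figure D2:**
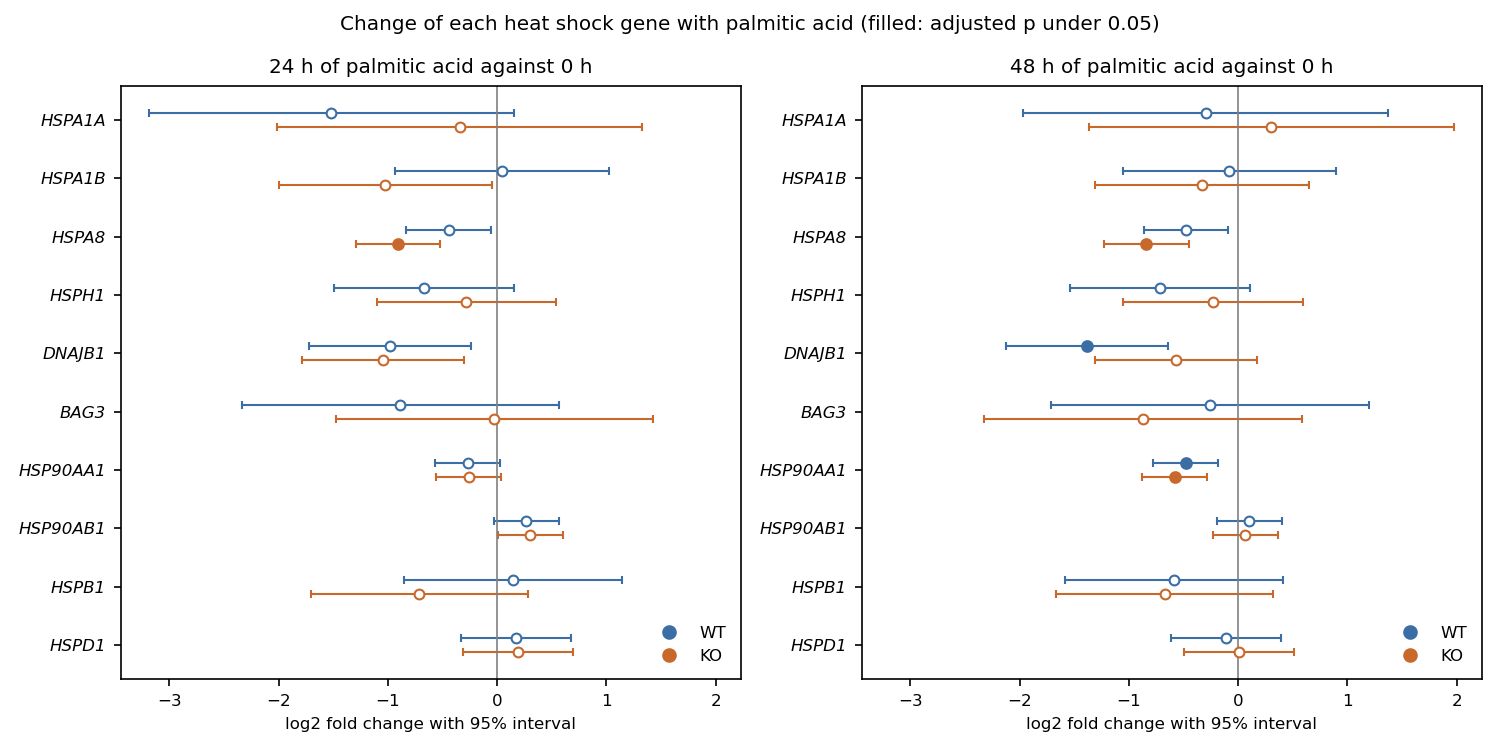
Log2 fold change of each member at 24 h and 48 h of palmitic acid against 0 h in WT and KO cells, with 95% intervals from limma; filled points have an adjusted p under 0.05. The 5 filled points are *DNAJB1* and *HSP90AA1* in WT (48 h), *HSPA8* in KO (24 h), and *HSPA8* with *HSP90AA1* in KO at 48 h, each to the left of 0.

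*HSPA8* (ENSG00000109971.13, chromosome 11, 123057489 to 123063230, minus strand, GRCh38) encodes HSC70, the HSP70 protein present in unstressed cells. In KO cells it read 375, 430.3, 371 and 242 FPKM at 0 h, 188, 202, 194 and 159 after 24 h and 199, 157, 241 and 186 after 48 h. Every KO library with palmitic acid was below every KO library at 0 h, and the lowest of the latter, replicate 3, lay just above the highest treated library. *HSPA8* fell by 0.91 ± 0.19 on the log2 scale at 24 h (SE, adjusted p = 0.0038) and by 0.84 ± 0.19 at 48 h (adjusted p = 0.0039). The groups averaged 355 ± 79.6, 186 ± 18.7 and 196 ± 34.9 FPKM (SD, n = 4). Both calls held in 8 of 8 fits without 1 library, with adjusted p up to 0.0191 at 24 h and 0.0212 at 48 h, and neither held under quantile normalization. Among all genes, every treated KO library was below every one at 0 h for 6.67% at 24 h and 8.97% at 48 h. In WT cells *HSPA8* read 366, 262, 264 and 238 FPKM at 0 h, 216, 156, 271 and 193 after 24 h and 175, 221, 195 and 213 after 48 h. The WT libraries at 24 h overlapped those at 0 h in 1 library, replicate 2, and those at 48 h were all lower than at 0 h, as the libraries of 6.69% of all genes were. The WT differences of -0.44 (adjusted p = 0.229) and -0.48 (adjusted p = 0.146) were not called. The KO response minus the WT response was -0.46 ± 0.26 at 24 h (95% interval -1.01 to 0.08, adjusted p = 0.902) and -0.37 ± 0.26 at 48 h (-0.91 to 0.18, adjusted p = 0.844), so a difference between the genotypes was not shown. In bulk RNA, fewer cells holding a transcript and less of it per cell cannot be told apart. The table holds 17 *HSPA8* pseudogene rows, 5 of them above 0, whose mean sum of 16.3 FPKM was 6.84% of the mean of *HSPA8*.

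The stress-inducible HSP70 genes *HSPA1A* (ENSG00000204389.9, chromosome 6, 31815464 to 31817946, plus strand) and *HSPA1B* (ENSG00000204388.6, chromosome 6, 31827735 to 31830255, plus strand) stayed near the detection limit in all groups. Their coding sequences are identical at 1922 of 1926 bases, so the division of fragments between them is uncertain, and their sum is given first. The sum read 6.36, 6.71, 3.66 and 7.45 FPKM in WT at 0 h, 4.27, 1.05, 4.83 and 6.62 after 24 h, and 3.19, 5.14, 3.32 and 7.90 after 48 h. In KO cells it read 12.2, 13.3, 11.2 and 3.22 FPKM at 0 h, 3.53, 7.02, 2.88 and 6.01 after 24 h, and 10.4, 5.60, 7.97 and 9.94 after 48 h. The 3 highest sums were KO libraries at 0 h, but the fourth KO library of that group was among the lowest. No exact two-sided permutation test of the log2 sum between groups of 4 went below 0.0571 over the 7 comparisons, with 0.0286 the smallest p possible. *HSPA1A* alone was listed at 0 in 3 of 24 libraries, 2 of WT at 24 h and 1 of KO at 0 h. *HSPA1B* alone was 6.97, 5.19, 4.78 and 3.22 FPKM in KO at 0 h and 2.13, 2.61, 1.73 and 2.19 in KO at 24 h. All were lower at 24 h, as for 6.67% of all genes, and the difference of -1.02 ± 0.47 was not called (adjusted p = 0.250).

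*DNAJB1* (ENSG00000132002.7, chromosome 19, 14514770 to 14529770, minus strand) encodes HSP40, the J-domain partner of inducible HSP70. In WT cells it read 62.0, 50.8, 54.8 and 46.1 FPKM at 0 h and 30.1, 24.8, 38.3 and 17.5 at 24 h. At 48 h it read 13.9, 25.6, 30.3 and 15.1. All WT libraries with palmitic acid were below all WT libraries at 0 h, as for 5.55% of all genes at 24 h and 6.69% at 48 h. The mean went from 53.4 ± 6.76 to 27.7 ± 8.75 and 21.2 ± 7.99 FPKM (SD, n = 4). The fall at 48 h was 1.38 ± 0.36 on the log2 scale (-1.38, 95% interval -2.12 to -0.64, adjusted p = 0.0194), and the difference at 24 h, -0.98 ± 0.36, was not called (adjusted p = 0.146). The call at 48 h was lost without WT replicate 0 at 0 h (adjusted p = 0.0571), without WT replicate 0 at 48 h (0.0705) and without WT replicate 3 at 48 h (0.0668), with differences of -1.30, -1.21 and -1.25. In KO cells *DNAJB1* read 37.3, 45.5, 85.5 and 56.9 FPKM at 0 h, 43.8, 35.2, 18.0 and 15.8 after 24 h and 48.2, 28.1, 53.0 and 23.3 after 48 h. These groups overlapped, and KO replicate 2 at 0 h held the highest value of all 24 libraries. The KO differences were -1.04 ± 0.36 at 24 h (adjusted p = 0.0965) and -0.57 ± 0.36 at 48 h (adjusted p = 0.385). Without KO replicate 0 at 24 h the difference there was -1.29 and was called (adjusted p = 0.0472). The KO response of *DNAJB1* at 48 h minus the WT response was 0.81 ± 0.51 (95% interval -0.24 to 1.86, adjusted p = 0.817). Exons of *TECR* on the opposite strand cover 211 of its 3672 exon bases, and *TECR* was called in none of the 9 comparisons. That row cannot show whether fragments of *TECR* were counted for *DNAJB1*, since the strand setting is unknown. The same holds for *WDR20* and *HSPE1* below.

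The exchange factors among the members, *HSPH1* and *BAG3*, gave no called change. *HSPH1* (ENSG00000120694.19, chromosome 13, 31134974 to 31162388, minus strand) encodes HSP110, which releases ADP from HSP70 and helps to take apart aggregates. It read 9.95, 35.4, 21.2 and 23.1 FPKM in WT at 0 h, 14.7, 11.0, 15.1 and 10.5 after 24 h and 19.8, 6.10, 13.5 and 13.5 after 48 h. WT replicate 0 at 0 h was the lowest of its group and below every WT library at 24 h, and the differences of -0.67 ± 0.40 and -0.72 ± 0.40 had adjusted p of 0.435 and 0.350. In KO cells *HSPH1* read 25.2, 19.3, 17.6 and 12.6 FPKM at 0 h, 9.93, 13.3, 18.7 and 19.4 after 24 h and 9.57, 16.8, 27.9 and 12.3 after 48 h, with overlap throughout. *BAG3* (ENSG00000151929.9, chromosome 10, 119651370 to 119677819, plus strand), which links HSP70 to selective autophagy, ranged from 0 to 9.21 FPKM, with both extremes at 24 h. None of its 9 differences was called, and its 95% interval for WT at 24 h, from -2.34 to 0.57, covers both a large fall and a rise.

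Of the HSP90 genes, the inducible one was called lower at 48 h. *HSP90AA1* (ENSG00000080824.18, chromosome 14, 102080738 to 102139699, minus strand), which encodes HSP90 alpha, read 713, 527, 632 and 565 FPKM in WT at 0 h, 535, 378, 609 and 516 after 24 h and 480.1, 363, 481 and 421 after 48 h. In KO cells it read 628, 517, 608 and 599 FPKM at 0 h, 457, 440.0, 560.0 and 507 after 24 h and 414, 323, 451 and 391 after 48 h. In both genotypes all libraries at 48 h were below all at 0 h, as for 6.69% of all genes in WT and 8.97% in KO cells, and those at 24 h overlapped both. *HSP90AA1* fell at 48 h by 0.48 ± 0.14 in WT (adjusted p = 0.0424) and by 0.58 ± 0.14 in KO cells (adjusted p = 0.0091). The WT call was lost in 5 of 8 fits that left out 1 library: without WT replicates 0, 2 and 3 at 0 h (adjusted p = 0.146, 0.0946 and 0.0538) and without WT replicates 1 and 3 at 48 h (0.146 and 0.0914). The KO call held in 8 of 8, with adjusted p between 0.0081 and 0.0466. At 24 h the differences were -0.27 in WT (adjusted p = 0.376) and -0.26 in KO cells (adjusted p = 0.359). Exons of *WDR20* on the opposite strand cover 197 of the 5248 exon bases of *HSP90AA1*, and *WDR20* averaged 8.44 to 15.3 FPKM per group and was called in no comparison.

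*HSP90AB1* (ENSG00000096384.19, chromosome 6, 44246166 to 44253888, plus strand) encodes HSP90 beta, the constitutive form. It read 222, 162, 249.5 and 238 FPKM in WT at 0 h, 257, 205, 328 and 260.3 after 24 h and 238, 216, 260.0 and 212 after 48 h. The KO libraries read 251, 216, 238 and 244 FPKM at 0 h and 276, 272, 302 and 322 at 24 h, and 230.3, 237, 281 and 246 after 48 h. All KO libraries at 24 h were above all at 0 h, as for 4.48% of all genes, while the WT groups overlapped. The differences at 24 h were 0.27 ± 0.14 in WT (adjusted p = 0.378) and 0.30 ± 0.14 in KO cells (adjusted p = 0.266), and neither was called.

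*HSPB1* (ENSG00000106211.8, chromosome 7, 76302544 to 76304295, plus strand) encodes HSP27, a small heat shock protein that forms large oligomers. It read 15.4, 15.0, 13.7 and 19.6 FPKM in WT and 40.4, 19.4, 28.8 and 35.4 in KO cells at 0 h, where 1 KO library lay below the highest WT library. In treated WT cells it read 27.1, 23.2, 12.9 and 11.5 FPKM at 24 h and 28.8, 3.96, 13.5 and 7.09 at 48 h. In treated KO cells *HSPB1* read 25.3, 28.9, 11.3 and 12.8 FPKM at 24 h and 17.1, 9.10, 33.3 and 22.8 at 48 h. The 4 WT libraries at 0 h lay close together, and the treated WT libraries fell on both sides of them. The values of *HSPB1* corresponded to a median of 15.5 fragments per library and to 4.08 in the lowest. Of 2 pseudogene rows of *HSPB1*, 1 was above 0, with a median of 0 and a highest value of 31.3 FPKM. No comparison called *HSPB1*. Its difference between KO and WT at 0 h, 0.90 ± 0.48, had an adjusted p of 0.744.

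*HSPD1* (ENSG00000144381.16, chromosome 2, 197486581 to 197516737, minus strand), the mitochondrial chaperonin, was called in no comparison. It read 226, 139, 211 and 171 FPKM in WT at 0 h, 173, 267, 262 and 151 after 24 h and 210.4, 158, 166 and 151 after 48 h. KO cells had 225, 111, 198 and 125 FPKM at 0 h. Treated KO cells had 138, 180.4, 219.7 and 193 FPKM at 24 h and 203, 134, 193 and 120.3 at 48 h. The groups overlapped in every comparison, and the time differences lay between -0.11 and 0.19. Exons of *HSPE1*, the cochaperonin gene on the opposite strand, cover 281 of its 4245 exon bases. *HSPE1* averaged 307 to 308 FPKM at 0 h and 232 to 251 later, and was not called either.

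The knockout was compared with WT at each time to ask whether loss of *ABHD6* altered the chaperones. No member was called at 0 h, 24 h or 48 h by limma, where 0.0985%, 0.0116% and 0.0638% of all genes were called, and no other test was run across genes. These shares stand for 17, 2 and 11 genes and rested on single libraries: the first count was 36 without WT replicate 0. The count at 24 h was 0 without WT replicate 0 or 2 or KO replicate 0, 2 or 3. The count at 48 h was 35 without WT replicate 3, 6 without WT replicate 0 or 2 or KO replicate 2, and 7 without KO replicate 0. At an unadjusted p under 0.05 the counts were 0, 0 and 1 of 10, where 6.92%, 5.17% and 6.56% of all genes passed. The 1 was *DNAJB1* at 48 h, 0.82 ± 0.36 higher in KO cells with overlapping libraries (adjusted p = 0.701). The groups of the genotypes overlapped for all 10 members at all 3 times, where they did not overlap in 2.72%, 2.92% and 4.11% of all genes. For the 2 HSP90 genes the 95% intervals were narrow, and at 0 h they reached from -0.34 to 0.25 for *HSP90AA1* and from -0.16 to 0.44 for *HSP90AB1*. For *HSPA1A* the interval at 0 h, from -1.47 to 1.87, left large differences undetectable at this depth. The test of whether the KO and WT responses differed called 0 of 10 members at 24 h, where 0% of all genes were called, and 0 of 10 at 48 h, where 0.0522% were. No member had an unadjusted p under 0.05 in either, where 5.51% of all genes did at 24 h and 6.60% at 48 h.

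**Figure D3:**
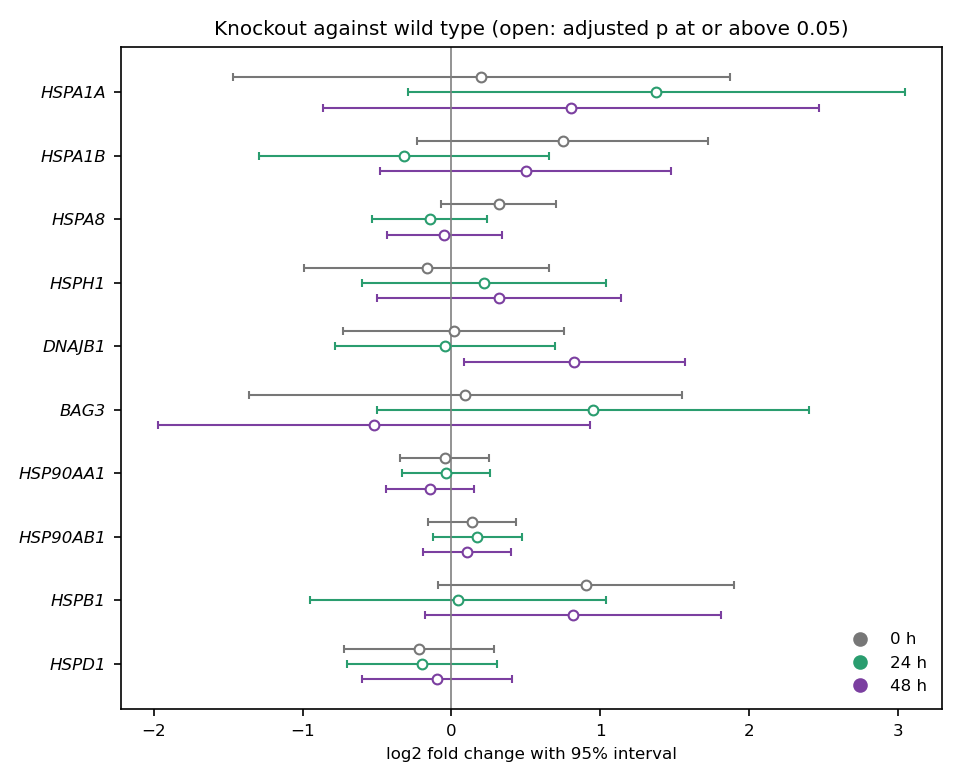
Log2 fold change of each member in KO against WT cells at 0 h, 24 h and 48 h of palmitic acid, with 95% intervals from limma; open points have an adjusted p of 0.05 or more. All 30 points are open, and the intervals are widest for *HSPA1A* and *BAG3*.

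The called falls depended on how libraries were put on a common scale. With no scaling between libraries, the summed FPKM was 1031361 to 1213284 at 0 h and 748252 to 995833 later. Median-of-ratios scaling moved the median of all genes by 0.11 in KO cells at 48 h. Under it, *HSPA8* was -0.66 there (adjusted p = 0.0192), or -0.77 relative to that median, *HSP90AA1* was -0.40 (adjusted p = 0.0434), or -0.51 relative to it, and *HSP90AA1* in WT at 48 h was -0.36 and no longer called (adjusted p = 0.0942). Quantile normalization, which gives all libraries the same distribution, ended the calls of *HSP90AA1* in WT (-0.05, adjusted p = 0.937) and KO cells (-0.02, adjusted p = 0.995) and of *HSPA8* in KO cells at 24 h (-0.58, adjusted p = 0.0797) and 48 h (-0.35, adjusted p = 0.301). It kept the call of *DNAJB1* in WT at 48 h (-1.22, adjusted p = 0.0379). It also called *HSP90AB1* higher in WT at 24 h (0.55, adjusted p = 0.0496) and in KO cells at 24 h (0.60, adjusted p = 0.0216) and 48 h (0.55, adjusted p = 0.0249). At 24 h the uncalled differences of *HSP90AA1* changed sign under it, from -0.27 to 0.08 in WT and from -0.26 to 0.05 in KO cells. In the other comparisons against 0 h these 4 genes kept their signs under the 3 scalings.

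**Figure D4:**
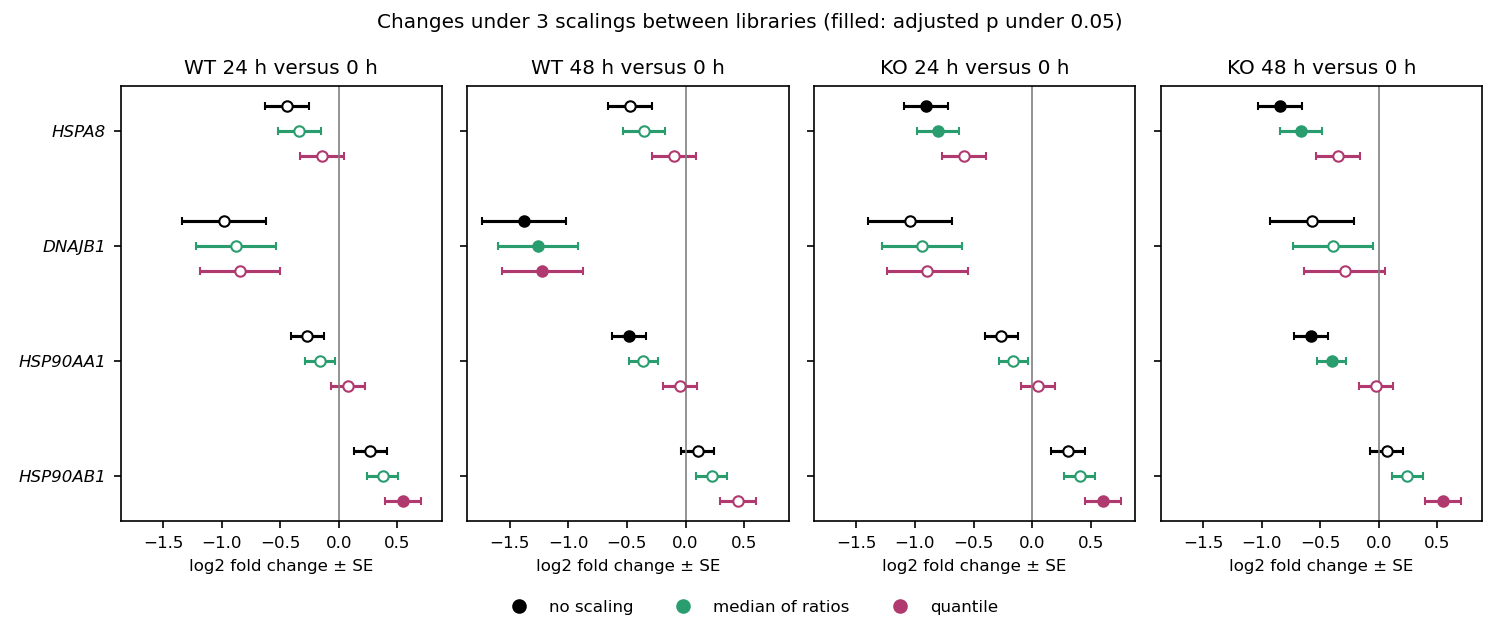
Log2 fold change ± SE of *HSPA8*, *DNAJB1*, *HSP90AA1* and *HSP90AB1* against 0 h under no scaling, median-of-ratios scaling and quantile normalization; filled points have an adjusted p under 0.05. Quantile normalization shifts the points to the right for *HSPA8*, *HSP90AA1* and *HSP90AB1*, and *DNAJB1* in WT at 48 h stays filled under all 3.

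Ratios of members within a library do not change when all values of that library are multiplied by a factor, apart from the pseudocount of 0.5, and 3 of them were compared, chosen after the values were seen. The log2 ratio of *HSP90AA1* to *HSP90AB1* read 1.68, 1.70, 1.34 and 1.25 in WT at 0 h, 1.05, 0.88, 0.89 and 0.98 after 24 h, and 1.01, 0.75, 0.89 and 0.98 after 48 h. The KO ratios were 1.32, 1.26, 1.35 and 1.29 before the acid, 0.72, 0.70, 0.89 and 0.65 after 24 h, and 0.84, 0.45, 0.68 and 0.67 after 48 h. In both genotypes every library with palmitic acid lay below every library at 0 h, so the inducible form was lower relative to the constitutive one. The mean differences were -0.54 and -0.58 in WT and -0.57 and -0.65 in KO cells, each with an exact two-sided permutation p of 0.0286, the smallest that 4 against 4 can give. Adjusted over the 28 tests of ratios and sums, that p was 0.0889. Because the 3 ratios were picked from these same values, their p-values describe the separation and cannot serve as independent tests. The share of other gene pairs whose ratios do not overlap was not computed. The ratio was lower in KO than in WT cells by 0.21 at 24 h and 0.25 at 48 h on average (-0.21 and -0.25, exact permutation p = 0.0571 for each), with overlap.

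The log2 ratio of *HSPA8* to *HSP90AB1* averaged 0.55 ± 0.42 in KO cells at 0 h, -0.66 ± 0.25 at 24 h and -0.36 ± 0.18 at 48 h (SD, n = 4), and all treated KO libraries were below all at 0 h. In WT cells it averaged 0.37 ± 0.38 at 0 h, -0.34 ± 0.09 at 24 h and -0.21 ± 0.26 at 48 h, all lower at 24 h and overlapping at 48 h. The log2 ratio of *DNAJB1* to *HSPA8* was -2.38 ± 0.12 in WT at 0 h, -2.92 ± 0.34 at 24 h and -3.28 ± 0.50 at 48 h, with every treated WT library below those at 0 h. The KO values were -2.68 ± 0.68, -2.82 ± 0.63 and -2.41 ± 0.41, with overlap. None of these ratios passed an adjusted p of 0.05.

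**Figure D5:**
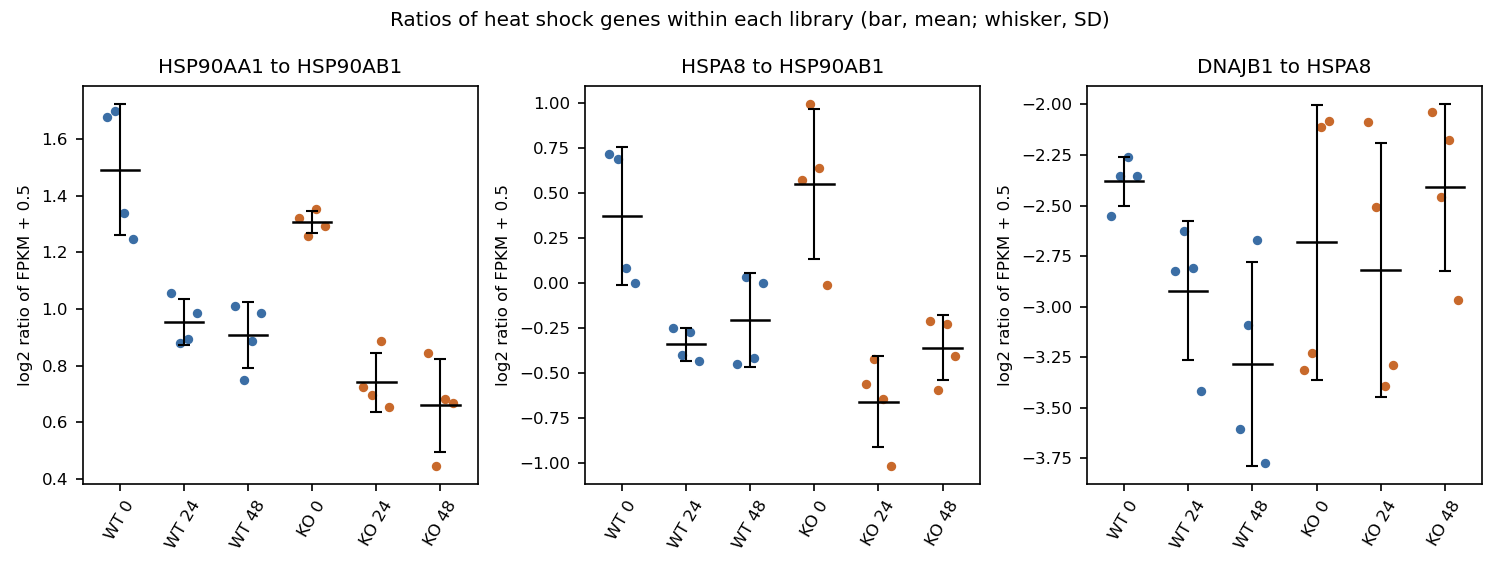
Log2 ratios of FPKM + 0.5 between pairs of heat shock genes in each of the 24 libraries, by genotype and hours of palmitic acid; bars are means and whiskers the SD of 4 libraries, and each panel has its own vertical axis. For *HSP90AA1* to *HSP90AB1* the 8 libraries at 0 h lie at 1.25 or above and the 16 later libraries at 1.05 or below.

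Other genes of the chaperone network were taken from 8 lists, of which 91 genes were tested. In WT cells 2 were called higher and 5 lower at 24 h, where 4.06% of all genes were called, and 4 higher and 6 lower at 48 h, where 6.79% were. In KO cells 3 were called higher and 4 lower at each time, where 5.64% of all genes were called at 24 h and 9.82% at 48 h. No count was tested against these shares, and the one in KO cells at 48 h lies below its share. None was called between the genotypes or in the difference of responses. The lists, like the members, were chosen with earlier results on these samples known.

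Among the partners of HSP70, 13 were tested. *HSPA13*, an HSP70 protein of the microsomal compartment, rose from 6.77 ± 1.81 FPKM at 0 h to 17.0 ± 2.61 at 48 h in WT (log2 change 1.29 ± 0.30, adjusted p = 0.0083), and from 5.87 ± 1.75 to 17.5 ± 3.95 at 24 h and 19.1 ± 3.58 at 48 h in KO cells. *STUB1*, the CHIP ubiquitin ligase that marks chaperone clients for degradation, fell from 1124 ± 191 to 678 ± 61.6 and 554 ± 106 FPKM in KO cells, and was called lower in WT at 24 h. *BAG2*, an inhibitor of CHIP, was called lower in all 4 comparisons, by 0.61 to 0.84. The median of this list lay between -0.36 and 0.03 over the 4 comparisons.

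Of 15 cytosolic J-domain proteins, *DNAJC2*, which works at the ribosome, was the 1 called gene, lower in WT at 48 h (-0.69 ± 0.18, adjusted p = 0.0229). Of 16 HSP90 cochaperones, *FKBP4*, the immunophilin FKBP52, fell in WT from 82.0 ± 59.5 FPKM to 10.0 ± 1.36 at 24 h and 19.9 ± 9.81 at 48 h. The KO means of *FKBP4* were also lower, at 50.8 ± 33.2, 16.4 ± 4.95 and 17.8 ± 14.3 FPKM, but were not called. *PPID*, cyclophilin 40, was called lower in WT at both times and in KO cells at 48 h. In the cytosolic chaperonin and prefoldin list of 14, *TCP1* was called lower in all 4 comparisons (-0.39 to -0.50). At 0 h *TCP1* averaged 1380 ± 50.2 FPKM in WT and 1361 ± 94.8 in KO cells. Its exons overlap a gene on the opposite strand, and whether its row holds fragments of that gene was not tested. *CCT2*, another subunit of the same ring and without such overlap, was called higher in KO cells at both times. *CCT2* averaged 23.0 ± 3.52 FPKM there at 0 h against 47.6 ± 16.7 at 24 h (adjusted p = 0.0373) and 42.7 ± 2.49 at 48 h (adjusted p = 0.0453). The mitochondrial list of 11 had *TRAP1*, the HSP90 of that compartment, called lower in KO cells at 24 h (-1.18 ± 0.27, adjusted p = 0.0102). Its KO mean was 101 ± 7.68 FPKM at 0 h and 62.1 ± 14.1 at 48 h. In WT it averaged 97.9 ± 46.6, 56.7 ± 13.9 and 58.8 ± 13.5 FPKM, lower but not called. The same list had *CLPB*, a disaggregase, which each WT library at 48 h listed at 0 and which is named here after its values were seen. Exons of *STUB1*, *BAG2*, *DNAJC2*, *FKBP4*, *PPID*, *TCP1*, *TRAP1* and *CLPB*, all called lower, overlap genes on the opposite strand, so their values are uncertain, while *HSPA13*, *CCT2*, *HSPB7*, *HSF2* and *ATF3*, all called higher, have no such overlap.

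Among 8 heat shock factors and regulators, *HSF2*, a paralog of HSF1, was called higher in WT, where 3 of 4 libraries at 0 h were listed at 0 and the mean was 8.11 ± 4.90 FPKM at 24 h and 11.0 ± 1.76 at 48 h. In KO cells *HSF2* was 2.42 ± 1.74 FPKM at 0 h and 6.78 ± 6.92 at 48 h and was not called. Of 5 tested small heat shock proteins, *HSPB7*, best known from muscle, was called higher in WT at 48 h, at 8.65 ± 2.90 FPKM against 3 of 4 libraries listed at 0 before treatment. The size of a fold against libraries listed at 0 depends on the pseudocount, so none is given. In the list of 9 further HSF1 targets 1 gene, the stress transcription factor *ATF3*, was called, higher in all 4 comparisons. At 0 h *ATF3* was listed at 0 in 2 of 4 WT and 3 of 4 KO libraries. Its WT mean was 13.7 ± 3.19 FPKM at 24 h and 6.75 ± 2.54 at 48 h. Its KO mean was 18.5 ± 6.79 FPKM at 24 h and 18.8 ± 3.95 at 48 h.

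Of the 31 calls among list genes, 19 held in all 8 fits that left out 1 library, and 11 of these also held under every other setting tried: *FKBP4* in WT at 24 h, *HSPB7*, *CLPB* and *HSF2* in WT at 48 h, *TRAP1* in KO cells at 24 h, and *BAG2*, *HSPA13* and *ATF3* in KO cells at both times. *CCT2* lost its call in 7 of 8 such fits at 24 h (adjusted p between 0.0410 and 0.140) and in 8 of 8 at 48 h (0.0604 to 0.129). *FKBP4* in WT at 48 h lost it in 6 of 8, *PPID* in WT at 24 h and *ATF3* in WT at 48 h in 5 of 8, and *STUB1* and *BAG2* in WT at 24 h, *DNAJC2* in WT at 48 h, *STUB1* in KO cells at 24 h and *PPID* in KO cells at 48 h in 4 of 8. *TCP1* in WT at 24 h lost it without WT replicate 0 at 0 h or replicate 3 at 24 h, and *HSF2* in WT at 24 h without replicate 2 of that group.

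Across the 24 libraries the members did not form a single pattern. Spearman's rho over the 45 pairs had a median of 0.20 and ran from -0.37 to 0.71. The highest were *HSPA8* with *DNAJB1* (0.71) and *HSPA8* with *HSP90AA1* (0.70), and *HSPA8* with *HSP90AB1* stood at -0.14. Among 3341 genes that averaged 20 FPKM or more, those most like each member were *TRIM59* (0.90) and *AC012640.4* (0.88) for *HSP90AA1*, *VGLL4* (0.84) and *MMP24* (0.82) for *DNAJB1*, and *DCLRE1C* (0.81) and *CCDC73* (0.80) for *HSPA8*. They were *RBM3* (0.75) and *ZFC3H1* (0.74) for *HSP90AB1*, and *PAPOLA* (0.68) and *HNRNPL* (0.67) for *HSPD1*. These values describe libraries that share group, depth and the antisense share, and carry no test.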

How the data were processed

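RNA of 24 Huh7 libraries, extracted with an RNeasy Plus kit and made into libraries with a directional TruSeq mRNA kit per the labels' protocols, was sequenced on an Illumina NovaSeq. The deposited table holds FPKM values made by the authors. Per the submitters' processing notes, GRCh38, STAR, Cufflinks and Cuffdiff were used, without versions, roles or a strand setting. Times were taken from the titles and the design text, since the treatment protocol names only a day 1 harvest. Symbols, exons and types came from GENCODE release 29, which matched 57416 of 58024 identifiers (99.0%). Fragments per library were estimated here from the smallest FPKM steps.

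Values were compared as log2(FPKM + 0.5) with limma 3.58.1 in R 4.3.3, for the 17252 genes that averaged 0.5 FPKM or more. The fit had 6 group means, an intensity trend in the variance, 18 residual degrees of freedom, a prior of 4.63 and no scaling between libraries. The 9 comparisons were KO against WT at 0 h, 24 h and 48 h, each later time against 0 h within a genotype, and the difference of these responses between genotypes. P-values were adjusted by Benjamini-Hochberg over all genes of a comparison. The 40727 genes below the floor and 45 duplicate rows of chromosome Y were not tested. Coding sequences were compared as the longest open reading frames of GENCODE transcripts.

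The members and lists were chosen with earlier results of these data known. Genes were named by a rule: all 10 members; genes with opposite-strand exon overlap with a member (*MIR639*, over *DNAJB1*, was not analysed here); up to 4 called genes per list and comparison with a mean of at least 5 FPKM in 1 group; and the 2 most alike genes of each member at 20 FPKM or more. Alternatives were a pseudocount of 0.1 or 1, a floor of 2 FPKM or none, scaling by median of ratios, quantile normalization, no variance trend, the replicate number as a block, a fit of only the groups compared, and each library left out in turn. Ratios were tested with exact permutation tests in scipy 1.17.1, with pseudocounts of 0.1 and 1 and each library left out as alternatives chosen after seeing the data. The fit was tested on simulated data.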

Additional observations from a re-analysis of the deposited data

Results flagged for a closer look

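Each member's 4 libraries were checked in each of the 6 groups for a single library far from the other 3, and 0 of the 60 sets had one.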

How the results depend on the processing

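The number of members called in WT at 48 h, 2 as reported, was 1 with no filter, with median-of-ratios scaling, with quantile normalization, with no variance trend and in a fit of only the groups compared, and the 1 was *DNAJB1* each time. It was 0 to 2 with 1 library left out. In KO cells at 48 h the count went from 2 to 1 under quantile normalization (*HSP90AB1*) and with no variance trend (*HSPA8*), and it was 2 in every fit without 1 library. In WT at 24 h it went from 0 to 1 under quantile normalization (*HSP90AB1*), and in KO cells at 24 h from 1 to between 1 and 2 with 1 library left out, and under quantile normalization the 1 was *HSP90AB1* in place of *HSPA8*. The counts between genotypes and for the difference of responses were 0 under all settings run. No called member reversed. *TCP1* in KO cells at 48 h went to 0.11 under quantile normalization (adjusted p = 0.347). Of the 31 list calls, 31 held with either pseudocount, 30 held with no filter, 28 with median-of-ratios scaling, 18 with quantile normalization, 17 with no variance trend and 16 in a fit of only the groups compared.

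Over all genes, 701, 1171, 973 and 1695 were called in WT at 24 h and 48 h and in KO cells at 24 h and 48 h. With no variance trend the first 3 counts were 334, 750 and 639, and in a fit of only the groups compared the first 2 were 308 and 560. Between the genotypes, 17, 2 and 11 genes were called at 0 h, 24 h and 48 h. With no variance trend the counts at 0 h and 48 h were 8 and 4, and in a fit of only the groups compared the 3 counts were 6, 6 and 7. At 24 h and 48 h they were 5 and 21 with median-of-ratios scaling, 5 and 26 with quantile normalization and 0 and 27 with the replicate number as a block. A pseudocount of 1 gave 1 at 24 h and a pseudocount of 0.1 gave 7 at 48 h. For the difference of responses, 0 genes at 24 h became 1 in a fit of only the groups compared, without KO replicate 2 at 0 h and without WT replicate 3 at 24 h, and 9 genes at 48 h became 4 with no variance trend. The split of higher to lower calls, in the same order, was 252 to 449, 443 to 728, 368 to 605 and 587 to 1108. It was 312 to 362, 594 to 585, 470 to 496 and 814 to 848 with median-of-ratios scaling, and 296 to 247, 546 to 392, 468 to 360 and 749 to 679 with quantile normalization.

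Replicate numbers did not pair the libraries: deviations from group means correlated between -0.125 and 0.144 for same-numbered libraries, and 7 of 24 libraries matched their own number best. With the replicate number as a block, the counts of called members stayed at 0 in WT at 24 h, 2 in WT at 48 h, 1 in KO cells at 24 h and 2 in KO cells at 48 h, and all-gene counts were 740, 1253, 1017 and 1753.

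Depth limits *HSPA1A*, *HSPA1B* and *BAG3*, which rest on a few fragments per library. It also limits *HSPB1*, with a median of 15.5 fragments.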
